A study of Mus musculus with 60 samples.

Results

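The forestomach of Muta™Mouse males given the medium dose of benzo(ghi)perylene (BghiP), 12.5 mg/kg-bw/day (D2), was compared with the forestomach of vehicle controls (D0). The 5 D2 and 5 D0 arrays were chosen by the tissue and dose group in the sample labels and made up 10 of the 60 arrays of the series. The series covered forestomach, lung and liver of 20 mice, with 1 array per tissue and mouse. All mice were males of this transgenic strain, which carries a lacZ reporter for mutation assays. They were about 10 weeks old and were housed singly, and each was gavaged daily for 28 days and sampled 72 hours after the last dose. D0 mice (numbers 1 to 5) received olive oil alone, and D2 mice (numbers 11 to 15) received BghiP dissolved in olive oil. The low (D1, 6.25 mg/kg-bw/day, mice 6 to 10) and high (D3, 25 mg/kg-bw/day, mice 16 to 20) dose groups had 5 mice each and entered the same model. RNA came from a random slice of the organ, so each value is an average over all cells in that slice.

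BghiP is a polycyclic aromatic hydrocarbon, a product of incomplete combustion. Many such hydrocarbons bind the aryl hydrocarbon receptor (AhR), which then enters the nucleus with its partner ARNT and switches on genes of xenobiotic metabolism such as Cyp1a1 and Cyp1b1. The rodent forestomach is lined by a stratified squamous epithelium and takes up an oral dose first. Metabolites that damage DNA engage p53 and its targets, among them Cdkn1a, a brake on the cell cycle.

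Each value below is a log2 ratio of tissue RNA (Cy5) to a reference RNA pooled from 11 mouse cell lines (Cy3), so 1 unit is a doubling against that reference. A change is the model's estimate of D2 minus D0. In forestomach and lung it is the D2 mean minus the D0 mean where no value is missing. In liver, where doses were not balanced over slides, it is adjusted for the slide. The forestomach arrays lay on 5 slides, and every slide held 1 forestomach array of each dose. The slide was therefore a term of the model, and each D2 mouse could be set against the D0 mouse of its slide (mouse 11 against 1, 12 against 2, and so on). Dose groups always occupied the same column of the slide, so position and dose cannot be told apart.

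Markers of squamous epithelium were read to check the tissue label. Of 18 tested genes of suprabasal and cornified cells, 15 were well above background on all 10 arrays, and their mean log2 ratio lay between 3.93 and 5.73 in D0 mice and between 4.18 and 5.70 in D2 mice. The 10 basal cell genes, such as Krt5 and Trp63, had mean log2 ratios of 1.77 to 2.74 in D0 and 1.93 to 2.74 in D2. The squamous label was therefore borne out on every array of both groups. Genes of the glandular stomach, which adjoins the forestomach, differed widely between mice. Their mean log2 ratio over 16 genes was 0.51, 5.67, 5.00, 0.76 and 0.52 in D0 mice 1 to 5 and 0.40, 6.23, 5.85, 5.84 and 1.59 in D2 mice 11 to 15. Glandular transcripts were thus high in D0 mice 2 and 3 and in D2 mice 12, 13 and 14, and low in the others.

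**Figure D1:**
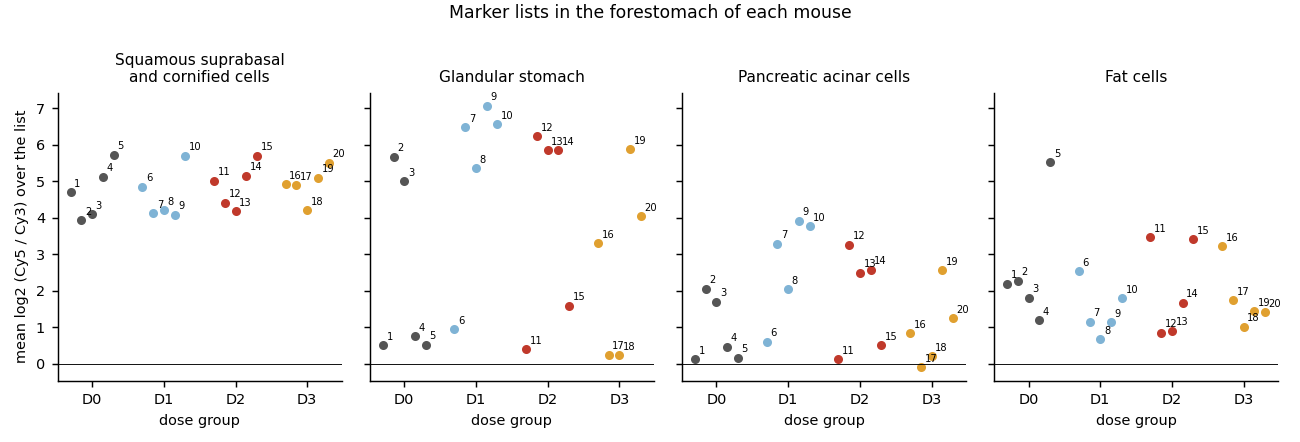
Mean log2 ratio of Cy5 to Cy3 over 4 marker lists in the forestomach of each of the 20 mice, by dose group, with mouse numbers beside the points. Squamous genes stay between 3.93 and 5.73 in all groups, whereas glandular stomach genes span 0.23 to 7.06 within groups, pancreatic acinar genes follow the same mice, and fat cell genes are highest in D0 mouse 5.

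No probe passed the threshold of an adjusted p of 0.05 or less with a change of at least 1.5-fold. Of 25070 probes tested, 0 (0%) were called by limma, and the lowest adjusted p was 0.501. Before adjustment, 2366 probes (9.44%) had a p under 0.05, 1267 higher and 1099 lower in D2, where 1253.5 would be expected of a test with no differences at all. The median change over all probes was 0.03, and 55.6% of probes were higher in D2. The split of these probes by direction followed the scaling, with 881 higher and 1583 lower in the deposited log2 ratios and 1136 higher and 647 lower in the scanner's processed signals. Leaving out D0 mouse 4 lowered the number at an unadjusted p under 0.05 to 1342, and leaving out D0 mouse 5 gave 1 called probe. That probe had no gene symbol. Its change was 0.96 with all mice and 1.19 without mouse 5, at an adjusted p of 0.0184. D2 arrays were also brighter than D0 arrays: 39.1% ± 9.84 (SD, n = 5) of probes were well above background in D2 against 34.4% ± 11.5 in D0, and the D2 array was the brighter one on 5 of 5 slides, by 1.98 to 7.64 percentage points. An exact two-sided sign-flip permutation test over the slides gave p = 0.0625, the smallest that 5 slides allow. In lung the same difference was positive on 3 of 5 slides, with a mean of 1.56 points. The part of array brightness in the gene results was not tested.

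Genes were named by a rule rather than by call: the lowest p among changes of at least 1.5-fold that had the same direction on all 5 slides, 12 in each direction. There were 215 such genes of 13327 with a symbol, 192 higher and 23 lower in D2. Of all 24876 probes with complete values, 262 were higher and 42 lower by the same conditions. Whatever the fold, 6.93% of these probes were higher on all 5 slides and 4.91% were lower on all 5. The D2 and D0 values did not overlap for 0.281% (higher) and 0.249% (lower). The adjusted p was 0.501 for each of the 24 genes, so none of the changes that follow passed the test.

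**Figure D2:**
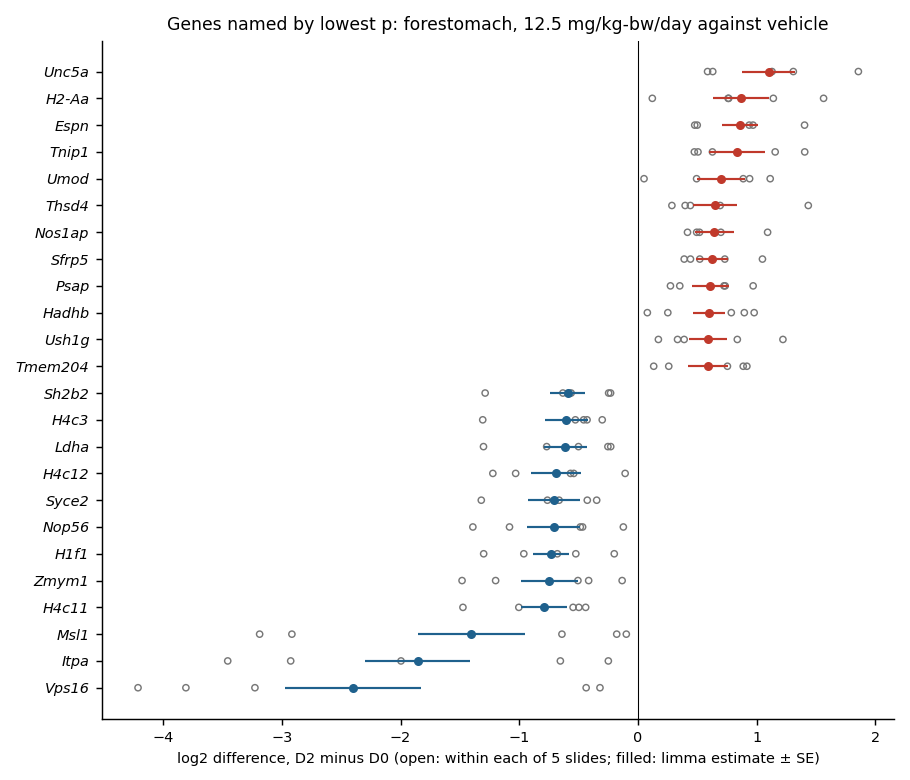
Log2 difference D2 minus D0 in forestomach for the 24 genes named by lowest p. Open circles are the 5 within-slide differences and filled circles the limma estimate with its SE. The differences of Vps16 and Itpa are widely spread, far below 0 on the slides of mice 11, 14 and 15, and those of Msl1 on the slides of D0 mice 1 and 4.

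Vps16 and Itpa had the largest decreases of all tested genes with a symbol. Vps16 encodes a core subunit of the complexes that tether endosomes and lysosomes, and Itpa the pyrophosphatase that removes inosine triphosphate from the nucleotide pool. The log2 ratio of Vps16 was -0.63, -0.47, -0.41, 0.25 and -0.93 in D0 mice 1 to 5 and -3.86, -0.91, -0.73, -3.96 and -4.74 in D2 mice 11 to 15. Mice 11, 14 and 15 were far below every control, and mice 12 and 13 lay within the control range. The model change was -2.40 (SE 0.57), a 5.28-fold lower mean. Itpa was at -0.30, -0.10, -0.10, 0.99 and -0.16 in D0 and at -2.30, -0.35, -0.75, -2.47 and -3.09 in D2, a change of -1.86 (SE 0.44). Here the groups did not overlap, although mouse 12 was close to the lowest control. The D1 mice ranged from -0.49 to 0.16 for Vps16 and from -0.69 to 0.86 for Itpa, and the D3 mice from -0.77 to 0.38 and from -0.23 to 0.59, so neither dose group held a mouse as low as mice 11, 14 and 15.

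The same 3 mice were low for both genes in lung and liver. In lung, Vps16 was at -4.35, -0.98, -0.96, -4.61 and -5.07 in D2 mice 11 to 15, against -1.05 to 0.14 in D0 mice. In liver, hybridised on other slides, it was at -3.69, -1.11, -0.996, -3.47 and -3.70, against -0.99 to -0.20 in D0. Itpa in D2 mice 11 to 15 was at -3.08, -0.91, -1.13, -2.72 and -3.20 in lung and at -2.74, -0.28, -0.03, -2.24 and -2.49 in liver. The D2 minus D0 change was -2.53 in lung and -1.82 in liver for Vps16 (limma adjusted p = 0.139 and 0.707), and -1.55 and -1.56 for Itpa (adjusted p = 0.139 and 0.707). The low values therefore followed the mouse across 3 tissues and were not shared by all mice of the dose group. Genotypes of single mice are not in the labels, and their part in these values was not tested.

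**Figure D3:**
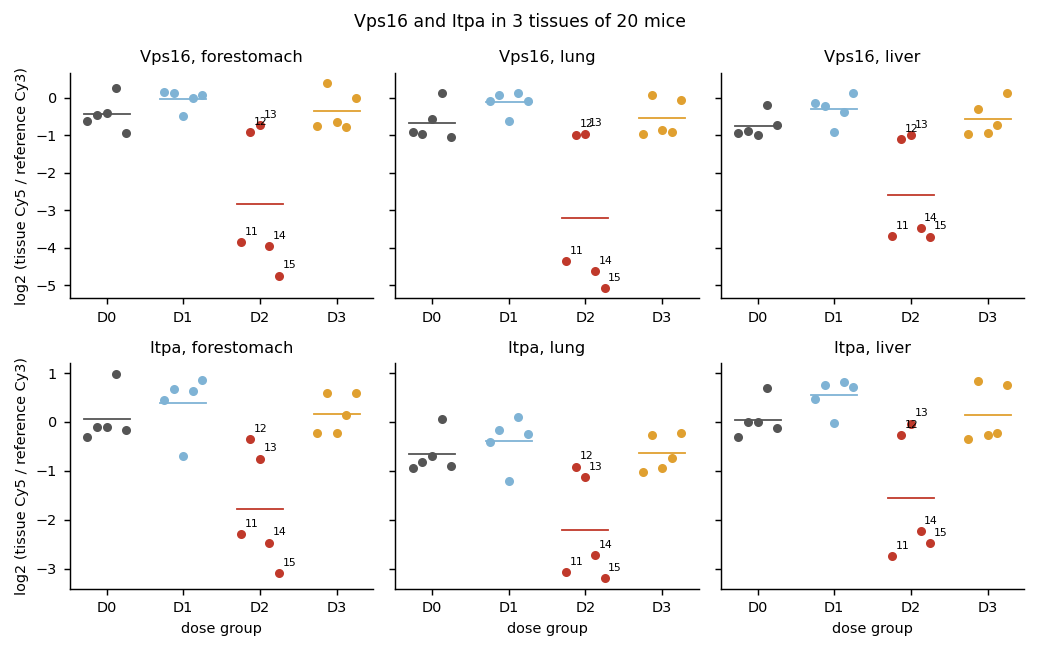
Log2 ratio of Cy5 to Cy3 of Vps16 (upper row) and Itpa (lower row) in forestomach, lung and liver of the 20 mice by dose group. Bars are group means and D2 mice are numbered. D2 mice 11, 14 and 15 lie below all other mice in each of the 3 tissues, from -5.07 to -3.47 for Vps16.

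Vps16 and Itpa are neighbours on chromosome 2, with 8 other tested genes between them. Of the 50 tested genes from 20 before Vps16 to 20 after Itpa, a window centred on the pair because of its values, 3 were higher (Atrn, 0.45; Siglec1, 0.47; Ap5s1, 0.79) at an unadjusted p under 0.05. Besides the pair itself, 3 were lower at that level (Nop56, Fastkd5 and Rnf24, the last at -0.53). Over all genes 5.34% were higher and 4.07% lower, and nothing particular to the window is read from these counts. Their median change was 0.05, as over all genes. Of the 8 genes between the pair, Fastkd5, a mitochondrial RNA-processing protein, was lower on 5 of 5 slides (-0.31, SE 0.09). The other 7 had changes of 0.05 (Ptpra), 0.02 (Mrps26), 0.17 (Oxt), -0.13 (Avp), 0.01 (Ubox5), 0.13 (Lzts3) and 0.04 (Ddrgk1), none at that level. Nop56, a core protein of the small nucleolar particles that guide ribosomal RNA methylation, was lower by 0.71 (SE 0.22) at 1 probe and by 0.34 (SE 0.15) at a second. At the first probe D2 mice 11, 14 and 15 were at -2.40, -2.54 and -2.62 in lung, below the lowest D0 value of -1.86, and mice 12 and 13 were at -1.71 and -1.45. At the second probe this was not seen, with lung values of -2.09 to -1.70 in D2 and -2.03 to -1.49 in D0. Ap5s1, a subunit of the AP-5 sorting complex, went the other way. It was at -0.62, -0.34, -0.55, -0.16 and -0.35 in D2 against -2.01 to -0.77 in D0, a change of 0.79 (SE 0.23) without overlap between the groups. In lung mice 11, 14 and 15 were again apart, at -0.05, 0.08 and -0.10, with mice 12 and 13 at -0.78 and -1.01.

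Replication-dependent histone genes made up 4 of the other 10 named decreases. These genes are transcribed in S phase and, in their usual form, end in a stem-loop in place of a poly(A) tail. H1f1, a linker histone, and the histone H4 genes H4c3, H4c11 and H4c12 were the 4. H1f1 was at -1.57, -0.88, -0.69, -1.12 and -1.90 in D0 and at -1.77, -1.84, -1.22, -2.42 and -2.58 in D2, a change of -0.73 (SE 0.15). The 2 groups overlapped, but on each slide the D2 mouse was the lower one. H4c11 was at -0.49, 0.03, -0.22, -0.13 and -0.99 in D0 and at -0.99, -0.98, -0.66, -1.60 and -1.54 in D2, a change of -0.79 (SE 0.20). The changes of H4c12 and H4c3 were -0.69 (SE 0.21) and -0.60 (SE 0.18). Histone H4 genes encode the same protein from near-identical coding sequences, so a signal at 1 probe may come from several copies.

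The sequences upstream of all 4 are shown because the genes differed in the same direction, with the CCAAT box (CCAAT or its reverse complement ATTGG) and the TATA box (TATAAA or TTTATA) in capitals. They are the 250 bases before the RefSeq start in GRCm38.p6, 5′ to 3′ in the direction of transcription, at chr13:23763418-23763667 (plus strand, H1f1), chr13:23698459-23698708 (minus strand, H4c3), chr13:21734784-21735033 (plus strand, H4c11) and chr13:21750554-21750803 (minus strand, H4c12).
H1f1: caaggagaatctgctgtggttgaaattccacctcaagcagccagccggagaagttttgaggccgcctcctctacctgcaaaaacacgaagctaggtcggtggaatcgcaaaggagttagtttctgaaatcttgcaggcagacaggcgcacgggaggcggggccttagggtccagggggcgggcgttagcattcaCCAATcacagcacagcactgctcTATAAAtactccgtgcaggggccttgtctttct
H4c3: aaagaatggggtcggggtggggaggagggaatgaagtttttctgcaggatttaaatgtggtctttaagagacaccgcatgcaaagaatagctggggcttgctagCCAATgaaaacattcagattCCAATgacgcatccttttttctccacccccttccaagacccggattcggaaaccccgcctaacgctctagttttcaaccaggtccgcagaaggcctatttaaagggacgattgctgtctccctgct
H4c11: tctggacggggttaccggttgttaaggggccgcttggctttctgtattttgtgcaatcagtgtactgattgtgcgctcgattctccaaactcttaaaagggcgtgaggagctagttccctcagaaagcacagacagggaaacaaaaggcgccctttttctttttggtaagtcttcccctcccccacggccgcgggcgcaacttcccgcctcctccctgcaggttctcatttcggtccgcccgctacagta
H4c12: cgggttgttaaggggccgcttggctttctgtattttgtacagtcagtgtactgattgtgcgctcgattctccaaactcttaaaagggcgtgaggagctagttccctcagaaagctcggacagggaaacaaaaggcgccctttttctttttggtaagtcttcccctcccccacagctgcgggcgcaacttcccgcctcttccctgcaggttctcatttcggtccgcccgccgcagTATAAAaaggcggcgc
The window of H1f1 holds 1 CCAAT and 1 TATAAA, that of H4c3 2 CCAAT, and that of H4c12 1 TATAAA. That of H4c11 holds neither motif. It closely resembles the window of H4c12 but ends within the stretch that holds TATAAA there, and bases past the end of a window were not searched. Of the 33 tested histone genes with a window in the table, 25 (75.8%) held a CCAAT box and 12 (36.4%) a TATA box, against 34.5% and 13.0% of the first window of all 27025 genes.

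A list of all genes with symbols of the H1f, H2ac, H2bc, H3c and H4c series was drawn up after these values had been seen. It was not limited to replication-dependent histone genes. Of its 37 tested members, 27 were lower in D2 and 16 were lower at an unadjusted p under 0.05, where 4.07% of all 13327 genes were lower and 5.34% higher at that level. None was higher at that level. H1f1, H4c3, H4c11 and H4c12, named above for their low p, belong to the list and enter its counts. The median change was -0.43, against 0.05 over all genes, and it lay between -0.52 and -0.29 when a slide was left out. H3c14 (-0.75), H2bc18 (-0.58) and H1f4 (-0.55) were among the lower members, and H3c15 (0.42) was the highest. The list mean was lower in D2 on 4 of 5 slides, slide 3 being the exception. The median was -0.17 over 36 members in lung and -0.10 over 35 in liver. D1 and D3, set against the same controls, had medians of -0.26 and -0.23.

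**Figure D4:**
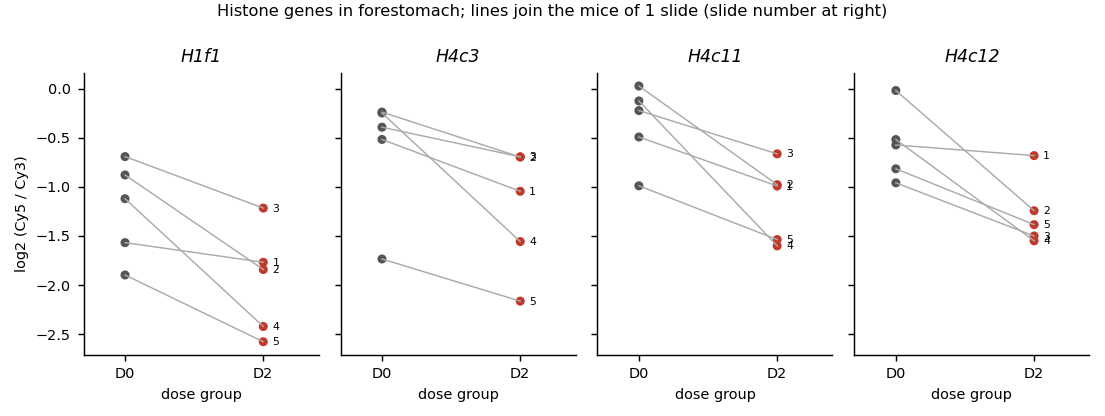
Log2 ratio of Cy5 to Cy3 of 4 histone genes in the forestomach of D0 and D2 mice, with lines joining the D0 and D2 mouse of a slide and the slide number at the right. All 20 lines run downward from D0 to D2, as the rule that named these genes required, while the values of the 2 groups overlap because slides differ.

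Over all genes 59.1% were higher in D2. At an unadjusted p under 0.05, 4.07% of all genes were lower and 5.34% higher. Cell cycle genes had smaller changes than histone genes. Of 29, 23 were lower in D2 and 3 of these were lower at an unadjusted p under 0.05 (Ccne1, -0.48; Bub1, -0.42; Mcm3, -0.35). Their median was -0.12, but the list mean was higher in D2 on slide 1 (by 0.60) and lower by 0.22 to 0.49 on the others. The median was -0.31 without slide 1, with 28 of 29 lower, -0.016 without slide 2 and -0.08 without slide 4. The marker of cycling cells Mki67 had a change of 0.10. Immediate early genes, transcription factors and signalling proteins that cells switch on within minutes of a stimulus, were mostly lower: 17 of 20, with 9 lower and 1 higher at an unadjusted p under 0.05 and a median of -0.28. Nr4a1 (-0.86), Ccn2 (-0.85), Fosb (-0.67) and Atf3 (-0.61) were the lowest. Their list mean was higher in D2 on slides 1 and 5 (by 0.04 on each) and lower by 0.74, 0.21 and 0.50 on slides 2, 3 and 4. Without slide 2 the median was -0.14. Cytosolic ribosomal protein genes were lower in 26 of 33, with 8 lower at an unadjusted p under 0.05 and a median of -0.15. Rps14 had the lowest change (-0.48, SE 0.16). The list mean of the 5 D2 mice, 0.07 to 0.17, was below that of the 5 D0 mice, 0.18 to 0.34. In the processed signals the median was -0.01, so this pattern was not seen under that scaling, and without slide 3 it was -0.096.

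The p53 targets and DNA repair genes had medians a little below 0. Of 24 p53 targets 15 were lower, 4 of them at an unadjusted p under 0.05 (Gdf15, -0.57; Zfp365, -0.38; Plk2, -0.37; Fas, -0.36), and the median was -0.12. Ccng1 (0.53) was the only member higher at that level. Cdkn1a was at 0.77, 0.45, 0.92, 0.62 and 0.96 in D0 and at 1.02, 0.61, 0.55, 0.62 and 0.45 in D2, a change of -0.09 (SE 0.12, adjusted p = 0.795). Its groups overlapped and the D2 mouse was the higher one on 3 of 5 slides. Of 33 genes of DNA repair and the damage response, 22 were lower, or 18 in the processed signals, with a median of -0.07. The 1 gene at an unadjusted p under 0.05 (Poli, -0.38) was 3.03% of the list, where 4.07% of all genes were lower at that level. Without a slide, the repair median lay between -0.135 (slide 1) and -0.012 (slide 2), and the p53 median between -0.179 (slide 4) and -0.025 (slide 3). In the deposited ratios the medians were -0.196 for p53 targets and -0.113 for repair genes.

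The classical AhR targets differed little from controls, and none passed the test. Cyp1a1, the enzyme most used as a reporter of AhR activity, was not well above background on any D0 or D2 array, and neither was Cyp1a2 apart from D2 mouse 15, at 2.20 against -0.06 to 0.09 in the other D2 mice. Both probes fell below the filter and were not tested. Cyp1b1, an enzyme that activates such hydrocarbons, was at -0.38, -1.12, -0.46, -0.56 and 0.22 in D0 and at -0.59, -0.63, -0.80, -0.05 and 0.42 in D2, a change of 0.13 (SE 0.21, adjusted p = 0.84). Tiparp, which modifies the receptor by ADP-ribosylation, had a change of -0.25 (SE 0.12) at 1 probe and -0.16 (SE 0.11) at the other, and Ahrr, the receptor's repressor, 0.05 (SE 0.14). Without D2 mouse 14 the change was -0.038 for Cyp1b1 and -0.10 for Ahrr, and in the processed signals that of Ahrr was -0.019. Nqo1, a quinone reductase shared with the Nrf2 pathway, was at 2.45, 3.70, 2.64, 2.53 and 2.09 in D0 and at 2.17, 3.83, 3.45, 2.92 and 2.43 in D2 (change 0.28, SE 0.31). Aldh3a1, an aldehyde dehydrogenase of squamous epithelia, was higher in D2 on 5 of 5 slides at 1 probe (change 0.29, SE 0.15, adjusted p = 0.540) and on 3 at the second (0.21, SE 0.16).

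The windows upstream of 4 of these genes are given to show where the core of the AhR response element (GCGTG or its reverse complement CACGC, in capitals) lies, at chr9:57697363-57697612 (plus strand, Cyp1a1), chr17:79715062-79715311 (minus strand, Cyp1b1), chr3:65528197-65528446 (plus strand, Tiparp) and chr8:107403206-107403455 (minus strand, Nqo1) of GRCm38.p6, from the same RefSeq table.
Cyp1a1: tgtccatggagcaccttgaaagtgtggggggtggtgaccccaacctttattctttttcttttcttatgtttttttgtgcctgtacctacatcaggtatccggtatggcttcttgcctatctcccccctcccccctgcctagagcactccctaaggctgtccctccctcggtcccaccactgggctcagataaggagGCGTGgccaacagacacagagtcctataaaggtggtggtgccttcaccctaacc
Cyp1b1: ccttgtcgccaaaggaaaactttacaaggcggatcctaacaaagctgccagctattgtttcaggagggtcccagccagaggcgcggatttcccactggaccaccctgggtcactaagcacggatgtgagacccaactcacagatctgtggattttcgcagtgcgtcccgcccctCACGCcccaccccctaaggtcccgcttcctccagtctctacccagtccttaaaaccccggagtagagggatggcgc
Tiparp: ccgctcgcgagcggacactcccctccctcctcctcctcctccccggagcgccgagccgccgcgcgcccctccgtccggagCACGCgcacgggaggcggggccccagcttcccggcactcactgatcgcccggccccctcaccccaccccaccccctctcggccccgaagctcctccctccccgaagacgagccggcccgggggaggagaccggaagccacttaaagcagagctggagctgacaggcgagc
Nqo1: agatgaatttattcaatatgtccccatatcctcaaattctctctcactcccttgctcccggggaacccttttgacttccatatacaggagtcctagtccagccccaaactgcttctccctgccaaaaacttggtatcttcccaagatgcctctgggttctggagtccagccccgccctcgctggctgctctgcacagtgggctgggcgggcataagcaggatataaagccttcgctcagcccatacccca
The windows of Cyp1a1, Cyp1b1 and Tiparp hold 1 core each and that of Nqo1 none. Of 10 tested AhR targets with a window, 3 held a core (30%), against 28.2% of the first windows of all genes, and the core of a gene may lie outside the window.

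As a list, 10 of the 12 tested AhR targets were higher, with a median of 0.13 and 1 (Ugt1a6b, 0.33) at an unadjusted p under 0.05. Ugt1a6a (-0.17) and Tiparp (-0.16) were the lower members, and the other Tiparp probe (-0.25), which the list does not use, was lower at that level. Cyp2s1 (0.41) had the largest change. Without slide 2 it was 7 of 12 with a median of 0.047, and without slide 4 the median was 0.065. In the deposited ratios it was 8 of 12 and 0.081. Over all genes the median was 0.05, 59.1% were higher, and 5.34% were higher at an unadjusted p under 0.05. The receptor complex itself had 4 of 8 higher and a median of 0.04, which turned to -0.01 under another scaling. Nrf2 targets, the antioxidant and conjugation genes, were higher in 18 of 23 with a median of 0.24. Abcc1 (0.34) and Pgd (0.25) were higher at an unadjusted p under 0.05, Gsta3 (0.42) had the largest change, and Hmox1 (-0.28) the lowest. Without slide 4 the median was 0.11, and it was 0.13 in the processed signals and 0.16 in the deposited ratios. Cytochrome P450 genes of families 2, 3 and 4 were higher in 9 of 13 (median 0.36), among them Cyp2a4 (1.05) and Cyp4a10 (0.63) at an unadjusted p under 0.05. Their median was 0.19 in the processed signals.

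The 12 named increases fell in several functions and had changes of 0.59 to 1.10. Unc5a, a netrin receptor, was well above background on 1 D0 array and on 5 D2 arrays, so its D0 level is mostly that of background. It was at 0.25, 0.19, 0.22, 0.38 and 0.78 in D0 and at 0.84, 1.32, 0.85, 2.23 and 2.09 in D2, a change of 1.10 (SE 0.22) without overlap between groups. Unc5a was also higher in lung on 5 of 5 slides (change 0.85, adjusted p = 0.551), and in D1 forestomach its change was 1.13. Espn, which bundles actin in microvilli and stereocilia, was at 1.13, 0.64, 0.35, 0.97 and 2.27 in D0 and at 2.07, 1.61, 0.82, 2.37 and 2.77 in D2 (change 0.86, SE 0.15). The groups overlapped because slide 5 was high and slide 3 low in both. Psap, the precursor of the lysosomal saposins, was at -1.35 to -0.76 in D0 and -0.61 to -0.28 in D2 (change 0.61, SE 0.16), and Tnip1, a partner of the NF-κB inhibitor A20, at -1.995 to -0.88 and -0.72 to 0.24 (change 0.83, SE 0.23). Neither gene's groups overlapped. The remaining increases were Hadhb (0.60), Nos1ap (0.64), Sfrp5 (0.63), Tmem204 (0.59), Thsd4 (0.65), Ush1g (0.59), H2-Aa (0.87) and Umod (0.70). Thsd4 was well above background on 1 D0 array, and Nos1ap, Sfrp5 and Ush1g on 3, so their D0 levels are in part those of background. Umod was not well above background on any D0 array, and D2 was at least 1.54-fold higher.

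Lists of PPAR targets and of oxidative phosphorylation had most members higher, where 59.1% of all genes were higher in D2, and no member passed the test. PPAR targets of fatty acid oxidation were higher in 18 of 22 with a median of 0.22, and Ehhadh (0.61), Hadhb (0.60), the beta subunit of the mitochondrial trifunctional protein, Cpt1a (0.52) and Acadvl (0.21) were higher at an unadjusted p under 0.05. None was lower at that level, and Angptl4 (-0.55), a secreted inhibitor of lipoprotein lipase, was the lowest, and Fabp3 (1.08, SE 0.99), a fatty acid binding protein, the highest. Without slide 2 the median was 0.12. Oxidative phosphorylation genes were higher in 26 of 31 with a median of 0.19, but Sdha (0.37) alone was at an unadjusted p under 0.05, 3.23% of the list against 5.34% of all genes higher at that level. The median was 0.12 in the deposited ratios. Their mean log2 ratio was 0.35, 0.86, 0.74, 0.32 and 0.40 in D0 mice 1 to 5 and 0.40, 1.27, 1.02, 0.53 and 0.35 in D2 mice 11 to 15. It was thus highest in D0 mice 2 and 3 and D2 mice 12 and 13, which were also high for glandular stomach genes, as was D2 mouse 14. In D1, mice 7, 8, 9 and 10, high for the same genes, were at 1.44, 0.70, 1.55 and 1.00, and mouse 6, low for them, was at 0.27. In D3, mice 16, 19 and 20, at 3.30, 5.87 and 4.04 for glandular genes, were at 0.39, 0.67 and 0.36. D3 mice 17 and 18, at 0.25 and 0.23 for glandular genes, were at 0.34 and 0.24. The part of glandular tissue in this list was not tested. Cholesterol synthesis (median 0.08, 15 of 24 higher, turning to -0.03 under another scaling) had no member at an unadjusted p under 0.05. Nor had fatty acid synthesis and storage (7 of 18 higher, median -0.10, or -0.022 without slide 2). Ldha, which makes lactate, was among the named decreases, at 0.24, 1.16, 0.28, 0.16 and -0.23 in D0 and -0.01, -0.14, 0.05, -0.61 and -0.73 in D2 (change -0.61, SE 0.18). The other named decreases were Sh2b2, a signalling adaptor (-0.59), Syce2, a protein of the meiotic synaptonemal complex (-0.70), and Zmym1, a zinc finger protein (-0.75).

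Wnt pathway genes were higher in 26 of 35, where 59.1% of all genes were higher. The count was 21 in the processed signals and 22 in the deposited ratios. At an unadjusted p under 0.05, 6 were higher and 1 lower, where 5.34% of all genes were higher and 4.07% lower. Wnt signals pass through Frizzled receptors to beta-catenin and are held back by secreted and intracellular inhibitors. The 6 were the ligand Wnt5b (0.71), the inhibitors Wif1 (0.69), Sfrp1 (0.61), Nkd2 (0.45) and Rnf43 (0.39), and Ctnnb1 (0.26), which encodes beta-catenin. The lower gene was Lef1 (-0.55), a transcription factor of the pathway, and the receptor gene Fzd4 had the largest change (0.72, SE 0.39) without reaching that level. The list median was 0.17, and 0.095 without slide 1. Junction genes of squamous epithelium were higher in 21 of 25 (median 0.21, or 0.091 without slide 2 and 0.11 in the processed signals), with Cdh1 (0.52) at an unadjusted p under 0.05 and Dsc2 (1.09) the largest. Retinoid and RXR genes (16 of 19 higher, median 0.15, or 0.054 in the processed signals) and endocytosis genes (median 0.07, or 0.027 in the processed signals) had smaller medians. Of 35 endocytosis genes 23 (65.7%) were higher, 3 (8.57%) at that level, against the 59.1% and 5.34% of all genes. Extracellular matrix genes had a median of -0.03 that turned to 0.07 under another scaling, with none at that level.

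Immune lists differed in direction. Of all genes 59.1% were higher, and at an unadjusted p under 0.05 there were 5.34% higher and 4.07% lower. Genes of antigen presentation were higher in 14 of 16 (median 0.25). H2-Aa, the alpha chain of an MHC class II molecule, was at 1.96, 1.65, 0.47, 3.19 and 3.86 in D0 and at 2.08, 2.79, 1.23, 4.75 and 4.62 in D2 (change 0.87, SE 0.24), and was higher on 5 of 5 slides with overlapping groups. The list mean was higher on slides 4 and 5 alone (by 1.19 and 0.43). Without slide 4, 8 of 16 members were higher and the median was 0.017. The same list had 16 of 16 members higher in lung (median 0.26) and 15 of 16 in liver (median 0.17). Of 5 T cell genes all were lower (median -0.23, or -0.13 without slide 2), Cd3e (-0.38) and Cd3g (-0.36) at an unadjusted p under 0.05. Interferon-stimulated genes had a median of -0.03 with 2 of 22 lower at that level, and the median lay between -0.18 (without slide 5) and 0.076 (without slide 1). Chemokines and cytokines had 11 of 22 higher, a median whose sign depended on the scaling (0.04, or -0.01), and with Ccl8 (1.25) and Ccl11 (0.51) higher and Ccl2 (-0.43) and Ccl3 (-0.32) lower at that level. The clock genes Dbp (1.05) and Nr1d1 (0.74) were higher and Nfil3 (-0.40) lower at that level, among 13 clock genes with a median of 0.14, or 0.028 without slide 4. Of the remaining lists, heat shock and unfolded protein response genes had 8 of 24 higher (median -0.06, or -0.18 without slide 1 and 0.08 without slide 2, with 3 lower at that level) and metallothionein and glucocorticoid response genes 11 of 14 higher (median 0.13, or 0.038 in the processed signals). Splicing regulators (15 of 29 higher) and nuclear long noncoding RNAs (4 of 7 higher) had medians of 0.01 and 0.03 whose sign turned under another scaling.

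The 4 largest increases regardless of p were Chil4, Try4, Ltf and Anxa10, all with wide spread between mice. Chil4, a chitinase-like protein, was at -0.12, 0.09, 0.64, -0.01 and 0.28 in D0 and at -0.03, 3.54, 2.87, 3.65 and 7.30 in D2. It was not well above background on any D0 array, and D2 was at least 7.73-fold higher (change 3.29, SE 1.32, adjusted p = 0.502). Anxa10, an annexin of gastric mucosa, was at 0.14, 9.29, 7.98, 0.23 and -0.08 in D0 and at 0.07, 9.95, 8.88, 9.37 and 2.58 in D2 (change 2.66, SE 2.49). It was high in the same mice as the glandular list. Ltf (lactoferrin; 2.75, SE 1.37) and Try4 (a trypsin; 2.79, SE 1.53) were likewise low in D0 mice 1, 4 and 5 and in D2 mouse 11. Umod, a named increase, was highest in D2 mice 12, 13 and 14 (1.44, 0.82 and 1.41). All 16 glandular stomach genes were higher in D2 (median 1.54), none at an unadjusted p under 0.05. On slide 4 the list mean of the D2 mouse exceeded that of the D0 mouse by 5.08, and on the other slides the difference was -0.11 to 1.07. Without slide 4 the list median was 0.62. Pancreatic acinar genes were higher in 8 of 8 (median 0.44), with the same mice high. Their median was 0.23 without slide 4 and 0.98 in the processed signals. In such bulk samples fewer cells of a type and less RNA per cell cannot be told apart, and the part of glandular tissue in the other changes was not tested.

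Fat cell genes were lower in 7 of 11, with a median of -0.59. Cfd (adipsin), the third largest decrease, was at 5.01, 5.75, 5.60, 0.27 and 8.80 in D0 and at 7.43, 0.06, 0.15, 3.63 and 5.32 in D2 (change -1.77, SE 1.26). The groups overlapped, and the D2 mouse was higher on 2 of 5 slides. Without slide 5 the list median was 0.01. Smooth muscle genes were higher in 11 of 11 (median 0.26, or 0.14 in the processed signals) and enteric neuron and glia genes in 10 of 10 (median 0.31; Snap25, 0.65, and Ret, 0.50, at an unadjusted p under 0.05). The remaining cell type lists had medians between -0.14 and 0.20, with at most 1 member at that level in any of them, and several of these medians changed sign under another scaling or without a slide.

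Trem1, a receptor of myeloid cells, was the fourth largest decrease and rested on 2 controls. It was at 4.08, 0.63, -0.06, 3.90 and 0.52 in D0 and at 0.15 to 0.54 in D2 (change -1.48, SE 0.57). The named probe of Msl1, a scaffold of a histone acetyltransferase complex, had the same pattern, at 3.44 and 3.16 in D0 mice 1 and 4, 0.25 to 0.56 in the other D0 mice and -0.08 to 0.25 in D2 (change -1.40, SE 0.45). A second Msl1 probe had a change of 0.08 (SE 0.16). A probe of Fubp3, picked out after its values were seen, was at 3.17 and 3.07 in mice 1 and 4 and between -0.12 and 0.11 in the other D0 and D2 mice. In lung the named Msl1 probe was at 0.28 and 0.27 in mice 1 and 4, within the 0.07 to 0.37 of the D0 group. The Fubp3 probe was at -0.18 and 0.12 in lung and at 0.07 and -0.05 in liver of mice 1 and 4. Unlike the low values of Vps16 and Itpa, the high values of the Msl1 and Fubp3 probes were therefore not seen in lung. Rsrp1, an arginine and serine rich protein, was lower in D2 by 0.91 (SE 0.30), and its change was -1.34 in lung and -0.46 in liver.

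D2 was also set against the other doses in the same model. Against D1, 0 of 25070 probes (0%) were called and 1984 (7.91%) had an unadjusted p under 0.05. Against D3, 0 (0%) were called and 2226 (8.88%) had an unadjusted p under 0.05. Lowest adjusted p values were 0.612 and 0.561. All 3 doses were compared with the same 5 controls, and their values are given side by side only. Vps16 and Itpa had changes of 0.41 and 0.32 in D1 and 0.08 and 0.11 in D3. Espn had 0.75 in D1, 0.86 in D2 and 0.34 in D3. The glandular stomach list had medians of 2.79, 1.54 and 0.18 and the fat cell list -1.31, -0.59 and -0.86. Neither list's median moved further from 0 with each step in dose.

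Whether the D2 change differed between forestomach and lung of the same mice was tested on the 25070 forestomach probes. None was called (0%), and 1244 (4.96%) had an unadjusted p under 0.05. The lowest adjusted p was 0.906. Of the 24 genes named by lowest p, 23 could be tested in lung, and 21 had the same direction there, 7 of them on all 5 slides (Unc5a, Vps16, Itpa, Nop56, Zmym1, H1f1 and H4c11). In liver 18 of 20 had the same direction. The lowest adjusted p of these genes was 0.139 in lung and 0.707 in liver. These tissues came from the same mice, and the lung arrays lay on the same slides and in the same dose columns as the forestomach arrays. The directions are therefore not independent of the forestomach values.

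**Figure D5:**
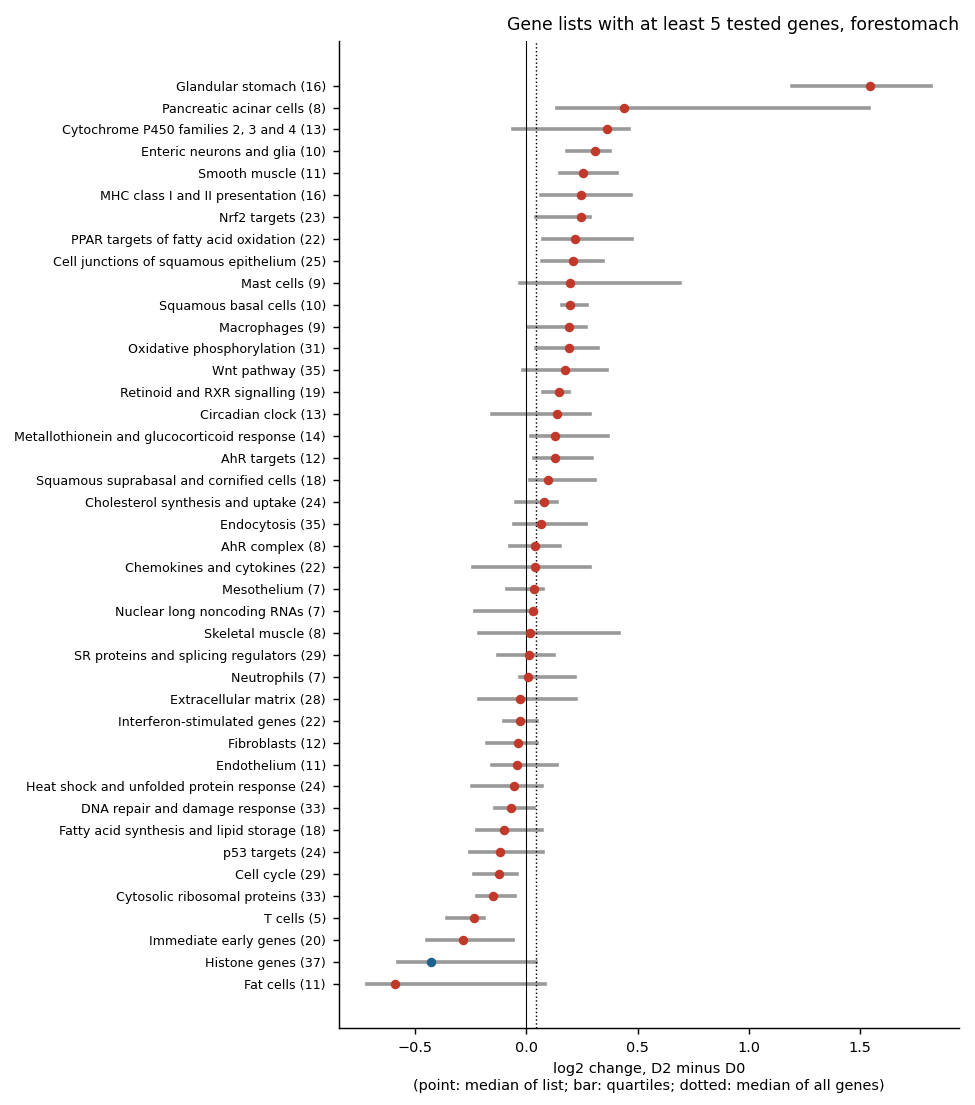
Median log2 change D2 minus D0 in forestomach (points) with quartiles (bars) for the gene lists with at least 5 tested genes, with the number tested in brackets. The dotted line is the median of all genes, 0.05. Glandular stomach (1.54) lies furthest to the right and fat cells (-0.59) and histone genes (-0.43, blue, a list drawn up after the values were seen) furthest to the left.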

How the data were processed

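RNA from 1 forestomach, lung and liver per mouse was hybridised to 2-colour Agilent 8x60K arrays, tissue in Cy5 and universal mouse reference RNA in Cy3, without dye swaps. The deposited spot intensity values came, per the file headers, from Feature Extraction 10.7.3.1, which also wrote 0 or 1 quality flags (unit other). The authors also deposited log2 ratios of Cy5 to Cy3 after LOWESS within each array, which correlated with the ratios computed here at r = 0.992 to 0.999. The design's build is mm9, and no coordinates of that build are printed.

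Median intensity values without background subtraction were loess normalized within arrays in limma 3.58.1 (R 4.3.3, with data.table, version 1.17.8). Control spots (3671 of 62976) were left out, spots flagged as outliers (0.520%) were set to missing, so 196 values of D0 and D2 (0.0782%) entered no fit, and no spot was saturated. Spots of a probe were averaged, and 25070 of 55681 probes were tested, those whose Cy5 signal the scanner marked well above background on 5 or more of the 20 forestomach arrays. Symbols came from matching the accessions in the scanner files to RefSeq transcripts and covered 47.4% of probes. Lists and counts by gene used the brightest probe of each of 13327 genes. The model held dose and slide over the 20 forestomach arrays, with eBayes and Benjamini-Hochberg adjustment over all tested probes. Calls needed an adjusted p of 0.05 or less and 1.5-fold. The study tested with the F statistic of MAANOVA and shuffled residuals. Its methods name no slide term. A limma model without that term and limma t statistics with p from 100 shufflings of residuals were among the alternatives, and neither is the study's own analysis. At the same cut-offs the study reported differentially expressed genes in both directions for this dose and tissue, where none was called here. The script was tested on simulated data.

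The text names 8 AhR, Nrf2 and p53 targets, 12 genes per direction with the lowest p (at least 1.5-fold, same direction on 5 slides), and the 4 largest increases and decreases, and it may name the lowest, highest and defining members of a list. Other genes, including list members at an unadjusted p under 0.05, were picked after their values were seen. The comparison, its members and the 43 gene lists were chosen with earlier results of these data known, and the histone list was added afterwards. Lists are described by counts and medians, without a test of the list. "At least" folds set the D2 mean of normalized log2 Cy5 against, per array, the higher of the dim probe's own signal and the lowest signal well above background; without dye swaps they are open to dye bias. Array number limits precision. Forestomach and lung arrays of a number came from the same mouse, and their deviations from group means correlated at a median r of 0.234 (18 of 20 mice over 0.1).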

Additional observations from a re-analysis of the deposited data

Results flagged for a closer look

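In 9 of the 164 groups of 5 mice examined (5.49%), 1 mouse stood apart from the other 4 by Dixon's criterion, which flags about 1 in 20 groups by chance. Among genes, Cyp1a2 was at 2.20 in D2 mouse 15 against -0.06 to 0.09 in the other D2 mice. D0 mouse 5 stood apart for Nos1ap (1.61), Thsd4 (1.52) and H4c3 (-1.73), and D0 mouse 4 for Itpa (0.99 against -0.30 to -0.10). Among list means, given as deviations from the D0 mean, D0 mouse 5 stood apart for fat cell genes (2.92 against -1.40 to -0.32), D2 mouse 15 for circadian clock genes (0.54), D0 mouse 2 for antigen presentation (0.36) and D0 mouse 3 for splicing regulators (0.25).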

How the results depend on the processing

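No probe was called in D2 against D0 under any alternative except without D0 mouse 5, where 1 was (0 to 1 over the runs without a mouse). The number at an unadjusted p under 0.05 was 2366, and it was 916 without the slide term, 4506 of 55681 without the filter on dim probes, 941 of 10659 with probes well above background on all 20 arrays, and 1342 to 3301 without 1 mouse. The share of these that were higher was 53.6%, and 35.8% in the deposited log2 ratios, 63.7% in the processed signals, 68.3% with the 10 D0 and D2 arrays alone and 63.9% with the stricter filter, while the median of all probes moved by less than 0.1. With the mouse as a replicate block, the difference between forestomach and lung still had 0 called probes, with 1124 at an unadjusted p under 0.05, and the pairing changed no other call. Of 662 values of 36 named genes under alternatives, 659 had the same direction. The exceptions were Ahrr (-0.019 in the processed signals, and -0.10 to 0.14 without 1 mouse) and Cyp1b1 (-0.038 to 0.29 without 1 mouse), both lowest without D2 mouse 14, and the cause was not tested. Of 44 list medians, 9 changed sign under another scaling and 15 without a slide, an alternative chosen after seeing the data. Brightness differed by 3.95 to 5.37 points without each slide.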
